A study of Mus musculus with 15 samples.

Results

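Alternative first exon events are places in a gene where transcripts can begin at 1 of several first exons. The 5′ end of the RNA, and at times the first amino acids of the protein, then differ. The exon of an event can be the minor or the main one of its gene. All entries of the alternative first exon type in the deposited splicing table were taken, 1482 of 138940 events of every type, and they lay in 1277 genes. The table gives each event a percent spliced in (PSI, a fraction from 0 to 1 for how much of the local RNA uses that first exon) in activated CD8+ T cells of mice given antigen alone and of mice given antigen with costimulation. OT-I cells, whose transgenic T cell receptor sees the ovalbumin peptide SIINFEKL, came from OT-1 Tg C57BL/6J mice (Rag-deficient by the study's methods) and were transferred into wild-type C57BL/6J recipients. The Ag group received SIINFEKL with control rat IgG, and the Ag+Costim group received SIINFEKL with agonist antibodies to OX40 (CD134) and 41BB (CD137). The labels put collection at day 4, the methods of the study at an earlier time, and the labels give no ages, for which the documents of the study hold more than 1 range. Donor CD8+ cells were sorted from spleen and lymph nodes, and poly(A) RNA of 5 libraries per group was counted by gene and transcript. Naive cells, the remaining labelled group, were not analysed here.

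Most mammalian genes have more than 1 promoter. Each promoter sets its own first exon, which can change the 5′ untranslated region while leaving the protein as it is, or move the start codon and give a protein with another N-terminus. In T cells, several regulators of quiescence and activation, among them Lef1, Tcf7, Nfatc1, Satb1 and Foxp1, are known to use alternative promoters. Broad promoters rich in CG dinucleotides (CpG) serve widely expressed genes, whereas TATA-box promoters with few CpG often serve more restricted transcripts.

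The 10 libraries were not alike in quality. Totals of estimated counts were 59598556 to 449401065 in Ag and 332290834 to 639070261 in Ag+Costim. Genes with a count numbered 20714 to 51778 in Ag and 28727 to 30340 in Ag+Costim. Ag 2 and Ag 5 had the fewest (21779 and 20714) and Ag 3 had the smallest total, so the share differences the results turn on are given with and without Ag 2 and Ag 5. The 8 T cell markers were high in every library (summed level 4494 to 8655 CPM, counts scaled to a common library total, in Ag and 6219 to 7262 in Ag+Costim). The 10 B cell markers summed to 666 to 1283 CPM in Ag and 535 to 793 in Ag+Costim, and the 8 erythroid markers reached 1106 CPM in Ag 3 and at most 126 elsewhere. Ag 1, 3 and 4 had the most genes with a count (48058, 51778 and 40441) and the highest B cell sums. Without Ag 2 and Ag 5, group therefore goes together with these traits. A smaller adjusted p in that setting cannot tell them apart, and the setting was chosen after seeing the data. The part of these markers in the results was not tested. The study describes its samples as mice or biological replicates, but the labels tie no library to an animal, so p-values are read as the spread between libraries.

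The sequences shown first are those of the genes on which the comparison turned. The 30 bases just before each start site are given from RefSeq promoters (GRCm38.p6, the same assembly as mm10), 5′ to 3′ on the gene's strand, with CpG in capitals. Rtn4, which encodes the membrane-shaping reticulon Nogo, has 3 such start sites, and the last one, whose PSI differed most, carries no CpG here.
Rtn4 exon 1, chr11:29692868-29692897 (+): ggctctctgtccccCGCGccagccagccct
Rtn4 exon 2, chr11:29693744-29693773 (+): gggaggaggggaCGggcagggctgctCGgg
Rtn4 exon 3, chr11:29718533-29718562 (+): ttttcttttggtagctgcctccttccctgc
Sgk1, a kinase of the PI3K and mTORC2 pathway, has 4 alternative first exons in the table, of which exon 4 had the large difference and exon 6 has 4 CpG here.
Sgk1 exon 3, chr10:21978642-21978671 (+): cctttatctcCGcctcttcctctgcctctg
Sgk1 exon 4, chr10:21992193-21992222 (+): gatataaagtgggactcagaacagaaaggc
Sgk1 exon 5, chr10:21993860-21993889 (+): ctgggatttttcagccttgcttagttttgg
Sgk1 exon 6, chr10:21994636-21994665 (+): cctttCGCGgCGcagggcttataaagcCGg
The start sites of the 3 genes below are shown because their shares did not overlap between the groups; Foxp1 is a forkhead repressor that keeps naive T cells quiescent, Clcn7 a lysosomal chloride-proton exchanger, and Tmem229b a membrane protein.
Foxp1 exon 5, chr6:99266516-99266545 (−): cagtggctttgttgtgtttagcccacatac
Clcn7 exon 1, chr17:25133361-25133390 (+): gcctcCGtCGtcagtcaCGtgggcacCGat
Clcn7 exon 2, chr17:25136601-25136630 (+): gcaacaggaagtagagttttctgggaggct
Tmem229b exon 2, chr12:79007278-79007307 (−): tgCGgcCGcCGcCGcttggggctgggttcc
Tmem229b exon 4, chr12:78983483-78983512 (−): ataaagctcttgacaatcttatcaaaatgt

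The choice of first exon also changes where translation begins in Rtn4, Sgk1, Clcn7, Prdm15 (a zinc finger transcription factor) and Aptx (a DNA end-processing repair enzyme). The first 30 coding bases of representative transcripts are given from the GENCODE annotation and mm10, with the start codon in capitals; their total coding lengths follow. Rtn4-201, the short transcript of exon 3, codes over 597 bases against 3486 for Rtn4-205 of exon 1 and 3138 for Rtn4-203 of exon 2.
Rtn4-205, exon 1: ATGgaagacatagaccagtcgtcgctggtc
Rtn4-203, exon 2: ATGgcgcccccgctggcgggaggcgggcag
Rtn4-201, exon 3: ATGgacgatcagaagaaacgttggaaggac
The Sgk1 exons give kinases of 1212 (Sgk1-213), 1251 (Sgk1-203), 1335 (Sgk1-202) and 1293 (Sgk1-201) coding bases that differ at their N-terminus.
Sgk1-213, exon 3: ATGaaacagagaaggatgggcctgaacgat
Sgk1-203, exon 4: ATGaaagaggagaccttaagatccccttgg
Sgk1-202, exon 5: ATGggcgagatgcagggcgcgctggctcgg
Sgk1-201, exon 6: ATGaccgtcaaagccgaggctgctcgaagc
Clcn7-201 codes over 2409 bases and Clcn7-204 over 2349, Prdm15-203 over 3444 and Prdm15-201 over 3522, and Aptx-201 over 1005 and Aptx-202 over 1026.
Clcn7-201, exon 1: ATGgccaacgtctctaagaaagtgtcttgg
Clcn7-204, exon 2: ATGcagggcattcttacaggcccattatgg
Prdm15-203, exon 1: ATGgctgaagatggtagtgaggagatcatg
Prdm15-201, exon 2: ATGtgcccacctactatctgggaaaagggt
Aptx-201, exon 1: ATGcgagtgtgctggttggtgagacaggac
Aptx-202, exon 2: ATGccggaagcagtagctaagatgcgagtg
By contrast, the coding transcripts from the alternative exons of Foxp1, Rhbdd3 and Tmem229b, and those of Dhcr7 other than Dhcr7-211, begin at a start codon that other first exons of the gene share.

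Most alternative first exons were used little or almost always, and similarly in the 2 groups. Of the 1482 events, 1451 were matched to a gene by symbol, 29 by position and 2 were not matched. A mean of at least 10 CPM in both groups was reached by the genes of 1056 events (900 genes), 424 were in lower genes, and 43 of these were under 1 CPM in both groups. Among the 1056, PSI was under 0.1 in both groups for 638, over 0.9 in both for 171 and in between in both for 184, so that 94.0% stayed in their class. Median PSI was 0.0437 in Ag and 0.0287 in Ag+Costim. The difference was below 0.01 for 586 events (55.5%). Each PSI pools the libraries of a group, so it has no spread between libraries; the comparison of PSI that the table itself holds was not used, and the differences are given as a description.

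At 10 CPM or more, 53 events in 52 genes differed by at least 0.1, 23 higher in Ag+Costim and 30 lower. That is 5.02% of the events, against 3.07% of all 95855 events of every type (1.52% higher and 1.55% lower). Core exons, the cassette exons inside a gene, passed the same size in 0.417%, alternative last exons in 3.61%, tandem start sites within 1 exon in 13.2% and tandem polyadenylation sites in 17.6%. Alternative acceptors (5.35%), alternative donors (7.32%) and retained introns (6.63%) lay closer to the first exons. Lower PSI in Ag+Costim was also the more frequent direction in these types, with 41 lower and 29 higher acceptors, 53 and 25 donors, 31 and 9 introns, and 10 and 3 last exons. Differences of at least 0.05 were found for 139 events (56 higher and 83 lower, 5.3 and 7.86% of the events, against 3.25 and 3.22% over all types) and of at least 0.2 for 10 (6 higher, 4 lower). The 3 past 0.3, Dhcr7, Sgk1 and Rtn4, were all lower in Ag+Costim. Just inside the 0.1 size lay Limk1 (0.567 in Ag and 0.465 in Ag+Costim), and just outside it Bcl2l1 (0.404 and 0.503). In the 424 events of lower genes the share past 0.1 was 11.3%.

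**Figure D1:**
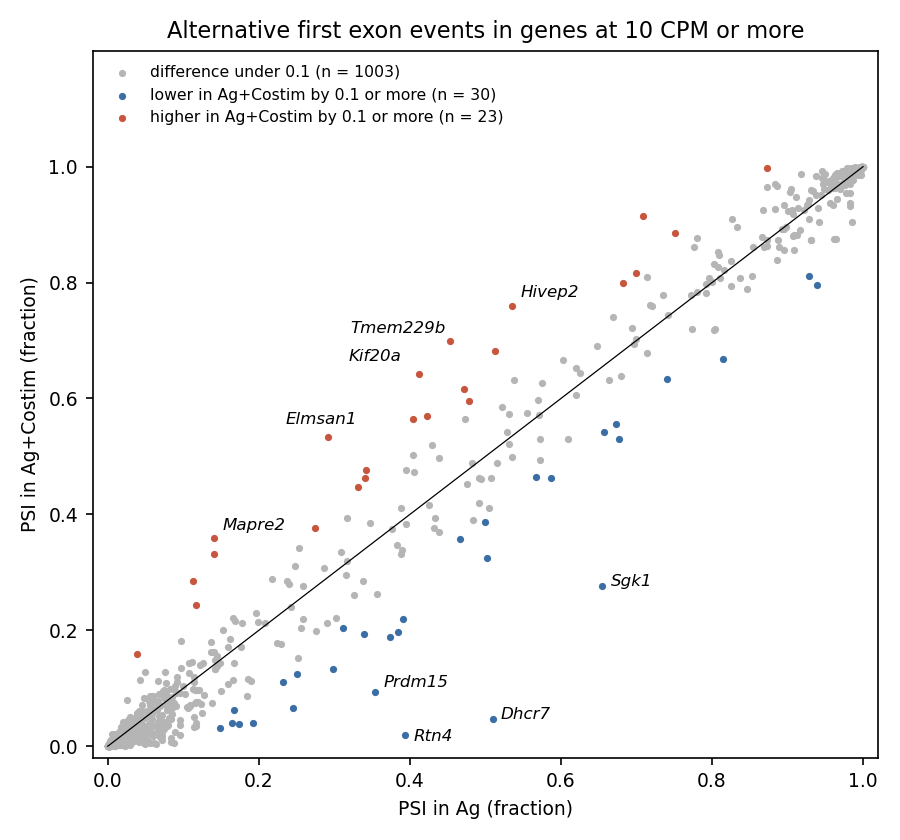
PSI of each of 1056 alternative first exon events in Ag (x axis, fraction) and Ag+Costim (y axis, fraction), 1 point an event, with the line of equal PSI. The 30 events lower by 0.1 or more in Ag+Costim are blue, the 23 higher are red, and Dhcr7, Rtn4 and Sgk1 lie farthest from the line.

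The alternative exon was seldom the most upstream one. It was exon 2 counted from the 5′ end in 560 of the 1056 events (53.0%), which can also be the most downstream. It was the most downstream first exon in 241 and the most upstream in 20. In 13 it was the only one, overlapping first exons being counted together. Which first exons of a gene are scored as events was not examined, so these positions describe the entries only. The median exon length was 152 bases (10 to 2739), and the nearest other first exon was a median of 827 bases away, within 1000 bases in 563 events and beyond 10000 in 179. In 330 events (31.25%) a coding transcript had its start codon within the exon, in 714 the start codon lay outside it and in 12 no coding transcript began there. Of the 53 events past 0.1, 17 had a start codon in the exon and 36 outside it.

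PSI is a local ratio and does not sum to 1 over a gene. Of 127 genes with at least 2 such events at 10 CPM, the sum exceeded 1 in 28 genes in Ag and 29 in Ag+Costim, and the 4 exons of Sgk1 summed to 3.00 and 2.49. To look at each library, the deposited transcript counts were therefore added up by first exon, and the share is the percent of a gene's transcript counts that begin at that exon. First exons that overlap were counted together, so a share can include transcripts that begin outside the exon of the PSI. Over the 784 events of genes at 10 CPM whose first exons were tested, PSI and mean share went together (Pearson's r 0.781 in Ag and 0.778 in Ag+Costim, Spearman's rho 0.783 and 0.780, across events of the same libraries). The differences between groups went together less (r 0.374, rho 0.410). Of the 53 events past 0.1, 51 were tested, and the share differed in the same direction as PSI in 44, in 24 of 29 lower and 20 of 22 higher.

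**Figure D2:**
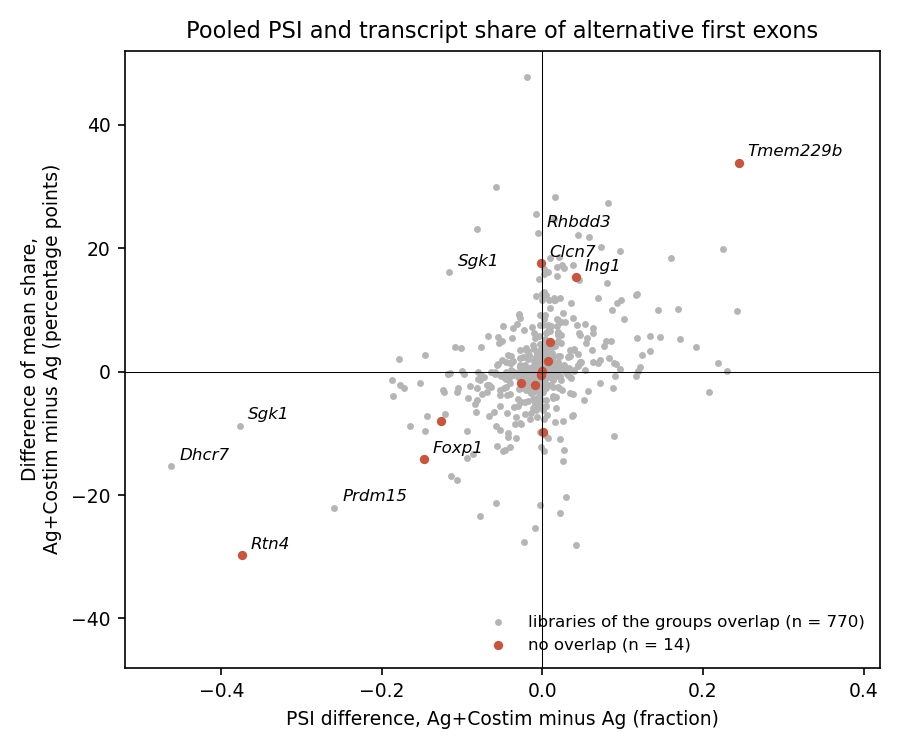
Difference of PSI (x axis, fraction) against the difference of mean share (y axis, percentage points), both Ag+Costim minus Ag, for 784 alternative first exon events. Red points are the 14 events whose libraries do not overlap between the groups. Rtn4 and Foxp1 are lower and Tmem229b higher on both axes, whereas Rhbdd3 and Clcn7 differ only in share.

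Among the 10 genes with the largest PSI differences in the direction of Ag, Rtn4 was the one whose shares did not overlap. PSI of its exon 3 (chr11:29718563-29718882) was 0.394 in Ag and 0.0195 in Ag+Costim. Its share was 44.8, 36.5, 2.17, 54.3 and 12.9% in Ag 1 to 5 and 0, 0.684, 0.15, 0.836 and 0.15% in Ag+Costim 1 to 5. Every Ag library was above every Ag+Costim library, although Ag 3 stood near them. The means were 30.1% ± 21.9 and 0.364% ± 0.371 (SD, n = 5 each), and edgeR's exon-usage test gave an adjusted p (BH over all groups tested) of 0.221. Without Ag 2 and Ag 5 the difference was -33.4 points with an adjusted p of 0.0422 in edgeR. Exon 1, the start of the long Nogo transcripts, held 54.9, 63.5, 97.7, 7.6 and 58.8% in Ag and 98.7 to 99.5% in Ag+Costim, so it was the main first exon in all libraries but Ag 4. Exon 2 held 38.1% in Ag 4 and 27.9% in Ag 5 and 0 in the other Ag libraries. The gene as a whole was at 13.7 ± 4.61 and 10.4 ± 1.88 CPM (SD, n = 5 each).

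Shares did not overlap either at Foxp1, which lay outside those 10. PSI of exon 5 of 15 (chr6:99266347-99266515, before the shared start codon of the full-length repressor) was 0.815 and 0.668. Its share was 10.1, 2.03, 26.5, 8.7 and 28.5% in Ag and 1.72, 0.813, 0.807, 0.669 and 0.846% in Ag+Costim. The groups did not overlap, with Ag 2 closest to the Ag+Costim libraries. The mean share was 15.2% ± 11.7 in Ag and 0.972% ± 0.426 in Ag+Costim (n = 5 each, SD), with an adjusted p of 0.0859 in edgeR, and of 0.00126 without Ag 2 and Ag 5. Leaving out Ag 2, Ag 4 or Ag 5 alone gave adjusted p values of 0.0172, 0.0491 and 0.0185. The Foxp1 gene was at 150 ± 97.9 CPM in Ag and 83.5 ± 9.62 in Ag+Costim (log2 fold change -0.85 ± 0.39, SE, adjusted p 0.271 in edgeR), the lowest fold change among the 52 genes. Only Ag 1 and Ag 4 were high, at 244 and 269 CPM. Ag 2, 3 and 5 were at 94.0, 83.7 and 61.8 CPM, and Ag+Costim libraries at 68.4 to 91.8.

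In Sgk1, local PSI and share did not always go the same way. PSI of exon 4 (chr10:21992223-21992407) was 0.655 in Ag and 0.277 in Ag+Costim. Its share was 15.4, 24.1, 0.481, 13.3 and 0% in Ag and 3.58, 0.722, 3.24, 0.221 and 1.94% in Ag+Costim. Ag 1, 2 and 4 were above all Ag+Costim libraries, and Ag 3 and 5 were among or below them (adjusted p 0.66 in edgeR). The difference of -8.74 points was -7.80 without Ag 2 and Ag 5 (adjusted p 0.2 in edgeR). Exon 3 (chr10:21978672-21978982) had a lower PSI in Ag+Costim, 0.812 against 0.928, but a higher mean share, 31.6% ± 9.27 against 15.5% ± 13.7 (SD, n = 5 each, adjusted p 0.915 in edgeR), a difference that was 13.1 points without Ag 2 and Ag 5. Exon 6, the start of Sgk1-201, had PSI values of 0.927 and 0.935 and shares of 38.9% ± 25.9 and 39.5% ± 6.91. The gene's level differed little, 87.6 ± 20.3 and 101 ± 8.99 CPM.

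**Figure D3:**
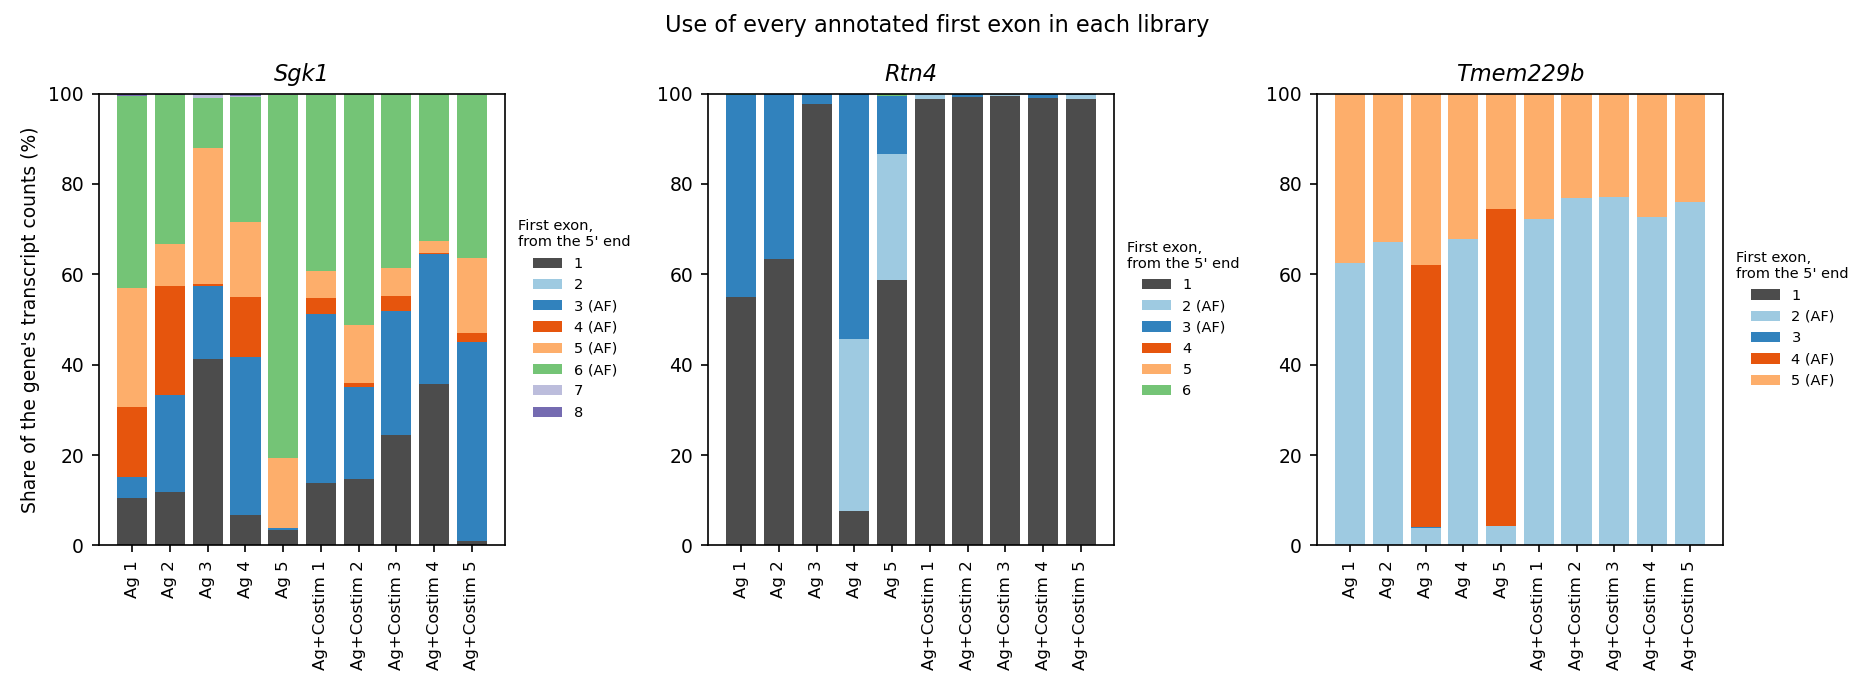
Share of a gene's transcript counts (y axis, percent) that begin at each annotated first exon, numbered from the 5′ end, in each of the 10 libraries for Sgk1, Rtn4 and Tmem229b; exons that are alternative first exon events are marked AF. Rtn4 exon 1 fills almost the whole bar in the 5 Ag+Costim libraries and in Ag 3, and Tmem229b exon 4 appears in Ag 3 and Ag 5.

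For Dhcr7 and Prdm15 the lower PSI went with single Ag libraries. Dhcr7, the enzyme of the last step of cholesterol synthesis, had the largest PSI difference at exon 2 (chr7:143829626-143829739), 0.509 against 0.047. Its share sums 7 transcripts, several of which begin downstream of this exon, so it is broader than the PSI. The values were 2.59, 85.7, 7.46, 13.4 and 2.68% in Ag and 8.05, 1.81, 17.3, 5.33 and 2.58% in Ag+Costim. Ag 2 alone was high, and without it the difference of -15.4 points became 0.473 points (-0.814 without Ag 2 and Ag 5). The gene was higher in every Ag+Costim library, 63.4 ± 4.46 against 42.8 ± 8.03 CPM (SD, n = 5 each, log2 fold change 0.57 ± 0.15, SE, adjusted p 0.182 in edgeR). Prdm15 exon 2 (chr16:97851051-97851227) had PSI values of 0.354 and 0.0942. Its share was 3.26, 86.9, 0.0697, 32.8 and 0% in Ag and 0, 0, 2.06, 0.234 and 10.6% in Ag+Costim. High values were those of Ag 2 and Ag 4, and without Ag 2 the difference shrank from -22.0 to -6.44 points (-9.45 without Ag 2 and Ag 5).

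In the other 6 of these 10 genes the shares of the groups overlapped. Plec, the giant linker of intermediate filaments, had 9 alternative first exons, the most of any gene. PSI of its exon 12 (chr15:76197980-76198209) was 0.390 and 0.219, with shares of 11.1, 11.3, 10.6, 16.2 and 1.94% in Ag and 4.94, 8.22, 9.93, 8.4 and 6.4% in Ag+Costim. Only Ag 5 was below the Ag+Costim libraries, and the other 4 were above all of them. Dusp14, a phosphatase that damps T cell receptor signalling, had PSI values of 0.299 and 0.134 at exon 5 (chr11:84066985-84067080). Its shares were 0, 10.8, 0.385, 48 and 11.5% in Ag and 2.96, 14.5, 3.34, 0.476 and 5.09% in Ag+Costim, and without Ag 4 the difference was -0.386 points. Nlrx1, a mitochondrial receptor of the NLR family, had PSI values of 0.384 and 0.197. Its shares were 9.45, 0.821, 18.4, 4.3 and 1.46% in Ag and 2.73, 2.24, 3.34, 4.42 and 14.7% in Ag+Costim, without a direction. Abhd4, a lipase, had PSI values of 0.373 and 0.188 and shares of 35.8, 28.8, 38.9, 41.3 and 24.4% in Ag and 32.7, 26.7, 35.6, 25.5 and 28.9% in Ag+Costim. Ampd2, which deaminates AMP, had PSI values of 0.245 and 0.0668. Its shares were 21, 4.44, 21.4, 48.8 and 20.1% in Ag and 8.86, 34.3, 25.3, 43.8 and 13.5% in Ag+Costim, and the means went the other way by 1.98 points. Tspan4, a tetraspanin, had PSI values of 0.502 and 0.325 and shares of 78.5, 69.1, 64.4, 83.2 and 75.2% in Ag and 83.7, 68.2, 83.7, 58.9 and 65.1% in Ag+Costim. Adjusted p was 1 in edgeR for all of these 6 shares. Without Ag 2 and Ag 5 the 6 differences ran from -10.8 points (Dusp14) to -3.45 (Tspan4), that of Ampd2 having turned to -5.27.

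Among the 10 genes with the largest PSI differences toward Ag+Costim, Tmem229b was the one whose shares did not overlap. PSI of its exon 2 (chr12:79006973-79007277) was 0.454 in Ag and 0.699 in Ag+Costim. Its share was 62.4, 67.1, 3.86, 67.9 and 4.28% in Ag and 72.3, 76.9, 77, 72.6 and 76.1% in Ag+Costim. Ag 1, 2 and 4 were only a little below the Ag+Costim libraries, whereas Ag 3 and Ag 5 were far below. In these 2 the transcript counts were instead assigned to exon 4, which held 58.0 and 70.1% there and at most 0.0188% in the other libraries. The pooled PSI of exon 4 did not show this, at 0.0827 in Ag and 0.0996 in Ag+Costim. The mean was 41.1% ± 33.9 in Ag and 74.98% ± 2.32 in Ag+Costim (n = 5 each, SD), and adjusted p was 1 in edgeR. Without Ag 2 and Ag 5 the difference of 33.9 points was 30.3, with an adjusted p of 1. The start codon is the same from both exons.

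Regulators of transcription and chromatin followed. Hivep2, a zinc finger protein that binds NF-kB-like sites, had PSI values of 0.536 and 0.760 at exon 2 (chr10:13966379-13966697). Its share was 67.3, 67.3, 62.6, 29.9 and 71.5% in Ag and 87, 83.4, 57.9, 84.6 and 85.1% in Ag+Costim. In Ag+Costim, 4 libraries were above all of Ag and replicate 3 was not. Kdm2b, a histone demethylase that binds CpG islands, had PSI values of 0.513 and 0.682 and shares of 10.4, 17.1, 28.9, 6.63 and 22% in Ag and 29.9, 22, 19.8, 46.8 and 17.3% in Ag+Costim. Elmsan1, a partner of histone deacetylases, had PSI values of 0.291 and 0.534 and shares of 11, 6.42, 30.7, 11.8 and 7.68% in Ag and 16.8, 20, 21.7, 39.5 and 19% in Ag+Costim; only Ag 3 was among the Ag+Costim libraries. Nr2c2, an orphan nuclear receptor, had PSI values of 0.141 and 0.332. Its shares were 10.3, 0.529, 0.447, 1.95 and 0.549% in Ag and 9.56, 5.94, 13.3, 1.59 and 3.11% in Ag+Costim. Adjusted p was 1 in edgeR for these 4. Their differences without Ag 2 and Ag 5 were 26.3 points for Hivep2, 11.9 for Kdm2b, 5.54 for Elmsan1 and 2.46 for Nr2c2.

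The other 5 higher events were in genes of RNA decay, signalling and the cytoskeleton. Cnot6l, a deadenylase of the CCR4-NOT complex, had PSI values of 0.113 and 0.284. Its shares were 3.52, 9.65, 1.04, 6.35 and 5.92% in Ag and 11.8, 9.54, 12.9, 7.76 and 10.7% in Ag+Costim, overlapping through Ag 2 (adjusted p 0.957 in edgeR). Sh3bp2, an adaptor in antigen receptor signalling, had PSI values of 0.404 and 0.564 and shares of 37.3, 48.6, 57.9, 13.7 and 58.5% in Ag and 57.4, 76.1, 71.5, 53.2 and 49.9% in Ag+Costim (adjusted p 1). Without Ag 2 and Ag 5 the differences were 6.91 points for Cnot6l and 25.3 for Sh3bp2. Mapre2, a protein of growing microtubule ends, had PSI values of 0.141 and 0.360. Its share was 0.07, 0.00447, 0.069, 43.3 and 0% in Ag and 50, 0.0135, 0.0721, 0.0287 and 0% in Ag+Costim, so 1 library of each group held nearly all of it, and the difference of 1.33 points was -4.47 without Ag 2 and Ag 5. Maged2 had PSI values of 0.708 and 0.915 and shares of 63.3, 67.5, 73.1, 77.6 and 47.1% in Ag and 83.3, 66.3, 70, 36.5 and 56.1% in Ag+Costim. Kif20a, a mitotic kinesin, had PSI values of 0.413 and 0.643, but its first exons overlap and the share was 99.7 to 99.9% in every library. Kif20a itself was at 185 ± 146 CPM in Ag and 393 ± 46 in Ag+Costim (log2 fold change 1.09 ± 0.59, SE, adjusted p 0.301 in edgeR), the highest fold change among the 52 genes. Every Ag+Costim library was higher, but Ag 1 and Ag 4 stood apart at 37.3 and 34.4 CPM. Ag 2, 3 and 5 were at 311, 202 and 340 CPM.

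**Figure D4:**
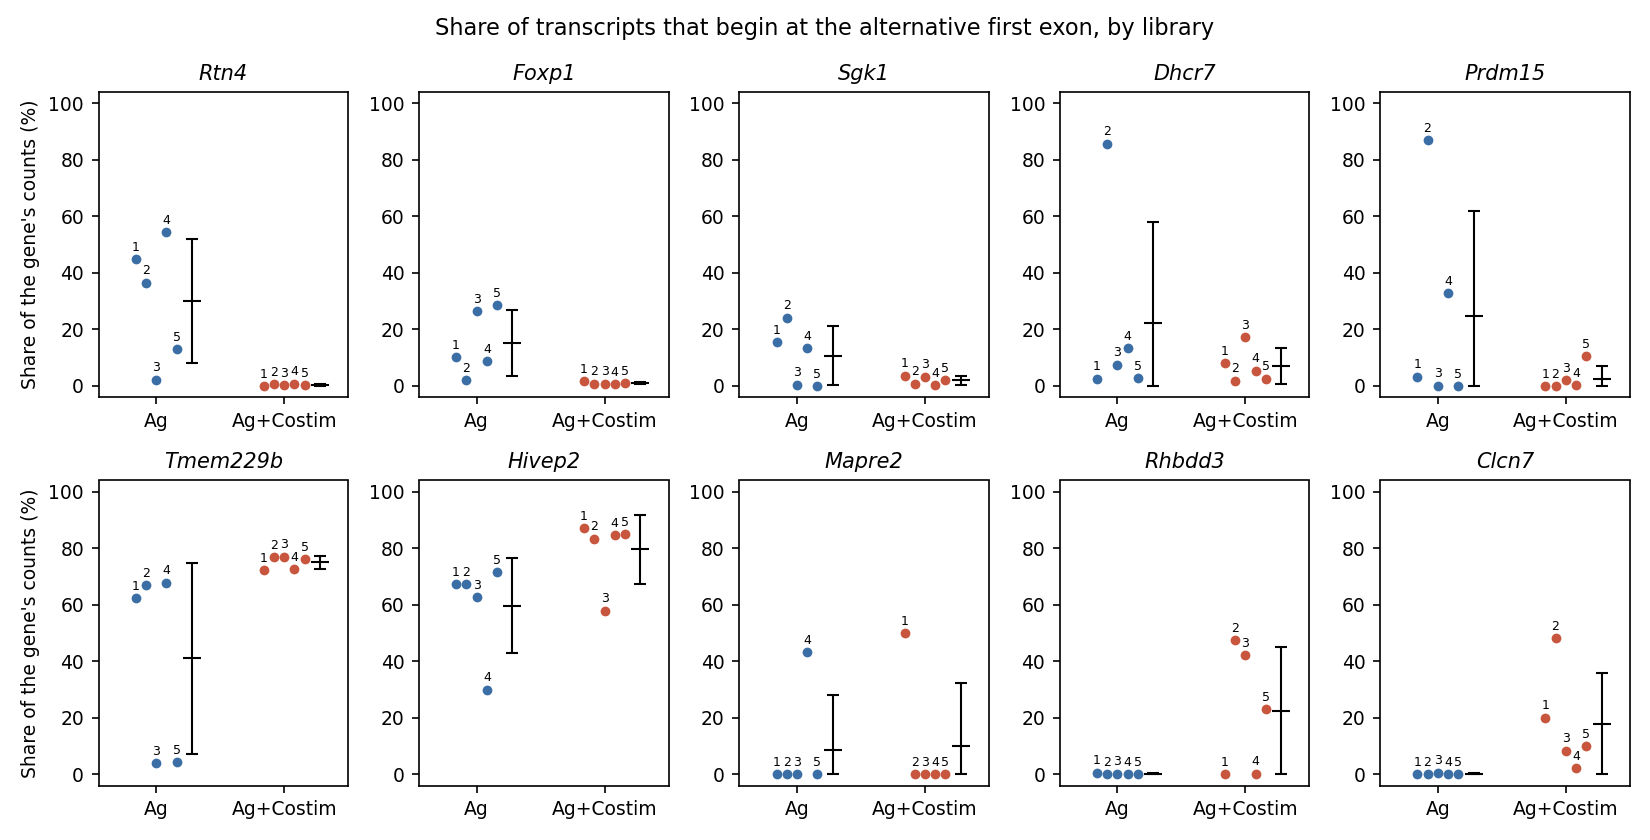
Share of a gene's transcript counts that begin at the alternative first exon (y axis, percent) in each library (points numbered by replicate) of Ag and Ag+Costim, with mean and SD (n = 5; bars stop at 0) for 10 genes. Rtn4, Foxp1, Tmem229b and Clcn7 do not overlap between the groups, and the Ag points of Dhcr7 and Prdm15 are spread by replicate 2.

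Across all first exons, the usage test called few. In edgeR, 21259 first-exon groups of 7185 genes were tested, and 3 were called at an adjusted p below 0.05 with a share difference above 10 points (0.0141% of all groups). Alternative first exon events took up 996 of the tested places, and 2 were called, Rhbdd3 and Clcn7. At an unadjusted p below 0.05 there were 70 of 996, near the background of 6.2%. Shares did not overlap between the groups for 8 events higher in Ag+Costim and 9 lower, against 1.19 and 1.46% of all groups. Without Ag 2 and Ag 5 these were 60 and 86, 6.02 and 8.63% of the events, against 11.7 and 18.3% of all groups. In that setting 10 of 1135 tested events were called (0.881%), against 150 of 26263 groups (0.571%). Among the 53 events past 0.1 in PSI, shares did not overlap in 4, namely Rtn4, Tmem229b, Aptx and Foxp1. The spread within Ag was the larger one. The median SD of the share over these 53 was 11.5 points in Ag and 5.19 in Ag+Costim, and it was larger in Ag in 41. Ag 4 was the Ag library farthest from the Ag+Costim mean in 15 of the 53, Ag 2 in 11, Ag 3 in 10, Ag 1 in 9 and Ag 5 in 8.

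The 2 called exons were ones whose PSI hardly differed. Clcn7 exon 2 (chr17:25136622-25136763) had PSI values of 0.0401 and 0.0386. Its share was 0.0756, 0, 0.632, 0 and 0% in Ag and 20, 48.2, 8.44, 2.08 and 9.9% in Ag+Costim. Every Ag+Costim library was higher, over a wide range, and the adjusted p was 0.0171 in edgeR. Leaving out Ag 1, Ag+Costim 1 or Ag+Costim 2 gave adjusted p values of 0.0595, 0.0725 and 0.113, and leaving out Ag 2 and Ag 5 gave 0.0111. Rhbdd3, a member of the rhomboid family, had PSI values of 0.0121 and 0.00644 at exon 3 (chr11:5100157-5100226). Its share was 0.588, 0, 0.242, 0 and 0% in Ag and 0.0641, 47.5, 42.1, 0.271 and 23% in Ag+Costim. Only Ag+Costim 2, 3 and 5 were high, the groups overlapped, and the adjusted p was 0.00766 in edgeR, 0.0529 without Ag+Costim 2, and 0.0188 without Ag 2 and Ag 5. Alas1, which makes the first intermediate of heme, had an adjusted p of 0.0153 in edgeR, with a share of 7.40% in Ag and 0.0743% in Ag+Costim, under the 10-point size; it was named after its values were seen. The same holds for Aptx and Ing1, a chromatin reader. Aptx exon 2 (chr4:40702724-40702914) had PSI values of 0.250 and 0.124 and shares of 15.9% ± 2.66 and 7.99% ± 2.68, and Ing1 had PSI values of 0.532 and 0.574 and shares of 44.7% ± 8.51 and 60.04% ± 1.82 (SD, n = 5 each), both without overlap and with an adjusted p of 1 in edgeR. Their differences of -7.93 and 15.3 points were -6.87 and 17.0 without Ag 2 and Ag 5.

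Genes known for alternative promoters, Lef1, Satb1, Nfatc1 and Foxp1 among them, formed a list. It held 62 genes, of which 21 had 38 events at 10 CPM. The median absolute difference of PSI was 0.0206, against 0.00763 over all 1056 events, and 7 of the 38 events passed 0.1 (5.02% of the 1056 did) while 12 passed 0.05 (4 higher and 8 lower, beside 56 and 83 of the 1056). The list was chosen with earlier results of these data known. Events of 1 gene are not independent either, and Plec alone has 9. These counts are therefore a description and no evidence about the list. Lef1, a factor of naive and memory T cells, had PSI values of 0.405 and 0.474 at exon 2 (chr3:131112797-131112820). Its share was 18.4, 24.7, 24.2, 18.6 and 25.8% in Ag and 37.5, 39.5, 28.9, 25.5 and 39.6% in Ag+Costim. All but Ag+Costim 4 were above every Ag library (adjusted p 0.864 in edgeR), and the difference without Ag 2 and Ag 5 was 13.8 points. Satb1, a chromatin organiser, had PSI values of 0.940 and 0.796 and shares of 63.0% ± 10.6 and 55.7% ± 17.95. Nfatc1, an NFAT factor, had PSI values of 0.523 and 0.586 at exon 2 of 3 and shares of 57.0% ± 5.17 and 58.4% ± 2.99. Its short form arises from an inducible promoter, to which this exon was not assigned here. Klf3, Rara, Bcl2l1 (the survival protein Bcl-xL) and a second exon of Plec at 76199549 had PSI values of 0.0633 and 0.00463, 0.423 and 0.570, 0.404 and 0.503, and 0.388 and 0.331. None of the 38 events was called in the usage test.

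The functional lists held small numbers, to be set beside 139 of 1056 events past 0.05 (56 higher, 83 lower). T cell receptor and costimulation genes had 22 events in 15 genes at 10 CPM, with 2 higher and 4 lower past 0.05. Tnfrsf9, the 41BB receptor that an antibody of the treatment binds, had PSI values of 0.804 and 0.720 at exon 4, with shares of 58.2% ± 10.7 and 52.9% ± 4.20. Transcription and chromatin genes had 52 events in 41 genes (5 higher, 7 lower past 0.05), and cytoskeleton and adhesion genes 45 events in 26 genes (3 higher, 6 lower), among them Sept9, a septin, with 0.657 and 0.542. RNA processing genes had 7 events, of which Hnrnpf, a splicing regulator, passed 0.05 with 0.331 and 0.448, while Celf2 had 0.945 and 0.981. Hnrnpf shares were 45.5% ± 5.36 and 44.8% ± 2.84, so the PSI difference was not seen in the transcripts. Cell cycle genes had 6 events, including E2f8 (0.847 and 0.789) and Mcm10 (0.0447 and 0.0704). Metabolism genes had 11 events, 2 past 0.05. Slc38a1, a glutamine transporter, had 0.473 and 0.564, and Slc35c2 had 0.0879 and 0.00634 while its mean share was 29.8% ± 22.3 and 52.9% ± 16.8, in the other direction. Asns, asparagine synthetase, had PSI values of 0.0554 and 0.00577. Effector and memory genes had 10 events, 2 past 0.05 (both higher), and Il12rb2, an interleukin-12 receptor chain, had 0.0498 and 0.00443. None of these lists held a called exon.

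The host genes of these events were compared in level as well. In edgeR, 0 of 24262 genes passed an adjusted p of 0.05 (4501 at an unadjusted p below 0.05, and 2912 in DESeq2), so percent called was 0. Of the 900 host genes at 10 CPM, DESeq2 called 84, and edgeR without Ag 2 and Ag 5 called 533, where it called 16322 genes in all. In the edgeR fit of all libraries, 650 of the 900 were higher in Ag+Costim by fold change and 250 lower, with a median log2 fold change of 0.22, while that of the 8309 genes at that level was 0.24. This sign depends on scaling, since the median for the 900 was -0.04 by library totals alone. In 114 of the 900 the groups did not overlap with Ag+Costim higher, and in 2 with it lower (11.5 and 0.181% of the 8309). The 52 genes with an event past 0.1 ran from -0.85 (Foxp1) to 1.09 (Kif20a), with a median of 0.08 and 37 within 0.5 of 0.

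CpG content at the alternative first exons lay between that of promoters of expressed genes and that of all promoters. RefSeq start sites lay within 50 bases of 493 of the 1056 exons (34 of the 53). The median ratio of observed to expected CpG from 250 bases before to 50 after the start was 0.648, against 0.794 over the 8110 promoters of genes at 10 CPM and 0.384 over all 32851 promoters. Exons with PSI under 0.1 in both groups had a median of 0.519 (n = 250), those in between 0.756 (n = 98) and those over 0.9 0.719 (n = 108). The 21 exons lower in Ag+Costim by 0.1 had a median of 0.664 and the 13 higher ones 0.602. At the exons shown above, the ratio was 0.0858 at Rtn4 exon 3 against 0.553 and 0.824 at exons 1 and 2, 0.0467 at Clcn7 exon 2 against 0.818 at exon 1, and 0.282 at Foxp1 exon 5 against 0.499 and 1.11 at the promoters at 99520993 and 99028298. At Sgk1 it was 0.488, 0.370, 0.636 and 0.770 at exons 3 to 6, and at Tmem229b it was 0.813 at exon 2 and 0.292 at exon 4.

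**Figure D5:**
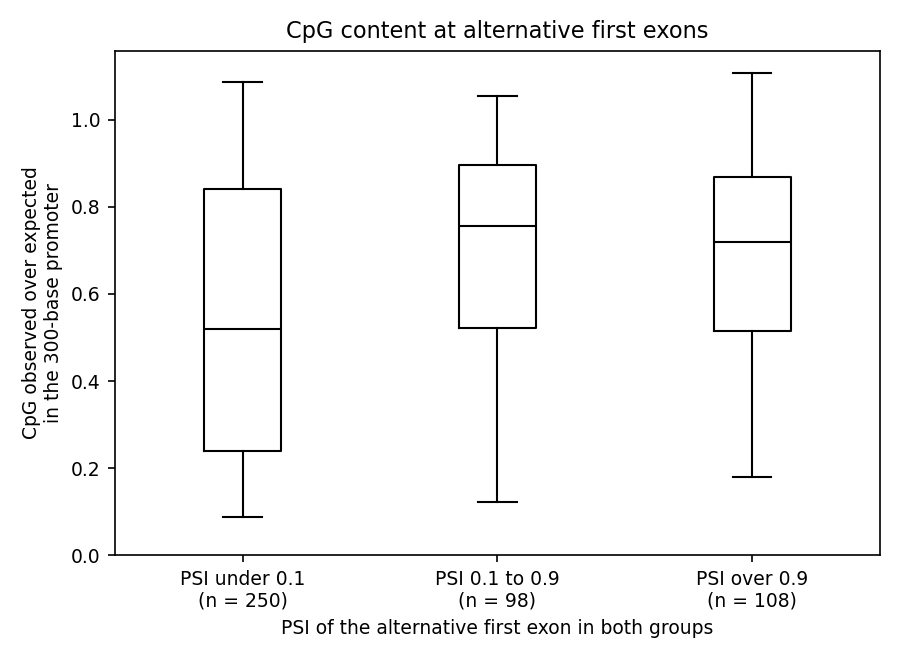
Ratio of observed to expected CpG (y axis) in the promoters of alternative first exons with PSI under 0.1, from 0.1 to 0.9 or over 0.9 in both groups (n = 250, 98 and 108). Boxes give the quartiles with the median and whiskers reach from the 5th to the 95th percentile; the medians are 0.519, 0.756 and 0.719.

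Short motifs were read from the same 300 bases on both strands. TATAAA was present in 5.68% of the 493 promoters, 6.3% of those of genes at 10 CPM and 13.6% of all RefSeq promoters. GGGCGG (the core bound by Sp1) was present in 56.6, 64.6 and 35.7%, CCGGAAG (the core of ETS factors) in 12.2, 22.3 and 8.86%, and TGANTCA (the core of AP-1) in 5.07, 4.48 and 7.81%. No motif searched is contained in another. The 21 promoters of exons lower in Ag+Costim held TATAAA in 1, GGGCGG in 12, CCGGAAG in 1 and TGANTCA in 2. The 13 of exons higher in Ag+Costim held TATAAA in 0, GGGCGG in 11, CCGGAAG in 2 and TGANTCA in 0. At single start sites, TATAAA was found at Sgk1 exons 4 and 6, and at Tmem229b exon 4, whose transcript share was high in Ag 3 and Ag 5.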

How the data were processed

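Poly(A) RNA of sorted OT-I CD8+ cells (SMART-Seq v4, Nextera XT, paired reads, 1 lane) was sequenced. The authors aligned reads to mm10 with HISAT2 2.1.0, used SAMtools 1.9, and derived each estimated count (expected count) per gene and transcript with StringTie 2.1.0. The deposited counts are whole numbers without normalization, and their totals are not numbers of reads. R 4.0.5 and DESeq2 1.30.1 are also listed in the submitters' processing notes. PSI fractions were made by the authors with Whippet, 1 pooled fraction per group (version not given in the sources used here). That deposited table also holds the authors' own PSI difference and its probability, which were not used, nor were entropy and complexity.

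From these, the 26345 entries without a gene identifier (0.0458 to 0.308% of a library's counts) were left out, leaving 55536 genes and 141862 transcripts. Depth ranged from 59598556 to 639070261 estimated counts, and estimated counts give no interval for counting error. CPM used TMM factors. Transcript counts were summed over overlapping first exons of a gene and tested with edgeR 4.0.16 in R 4.3.3 (quasi-likelihood fit, diffSpliceDGE, BH below 0.05 and a share difference above 10 points). Genes were tested with edgeR's quasi-likelihood test. An event was matched to the first exon its node overlaps. DESeq2 1.42.0 and limma 3.58.1 served as alternatives. The steps were tested on simulated data.

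Members and lists were chosen with earlier results of these data known. Named genes were the 10 largest PSI differences in each direction at 10 CPM, called exons, events past 0.05 in genes known for alternative promoters, and up to 3 per functional list; others are said to be named after their values were seen. An item that this rule names is not reported here.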

Additional observations from a re-analysis of the deposited data

Results flagged for a closer look

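For the genes with the largest differences and the called exons, 88 groups of 5 libraries were looked at (shares and gene levels). In 14 of them, 1 library stood far from the other 4. A chance rate of about 1 in 20 assumes normally distributed values. Shares are bounded, several sat near their lower limit, and the genes were picked by their results. The 14 can therefore not be compared with that rate and are given as a description. In Ag, high first-exon shares were those of Dhcr7 in replicate 2 (85.7%), Dusp14 in replicate 4 (48.0%), Mapre2 in replicate 4 (43.3%), Elmsan1 in replicate 3 (30.7%), Nr2c2 in replicate 1 (10.3%) and Clcn7 in replicate 3 (0.632%), and Hivep2 was low in replicate 4 (29.9%). In Ag+Costim, high shares were those of Mapre2 in replicate 1 (50.03%), Elmsan1 in replicate 4 (39.5%), Nlrx1 in replicate 5 (14.7%) and Prdm15 in replicate 5 (10.6%), and Hivep2 was low in replicate 3 (57.9%). Gene levels stood apart for Abhd4 in Ag 4 (22.01 CPM) and Prdm15 in Ag+Costim 5 (17.2 CPM). Ag 4 accounted for 4 of the 14 and Ag+Costim 5 for 3.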

How the results depend on the processing

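The counts of first-exon calls moved with the method and with the Ag libraries. Against 3 groups called, limma's diffSplice on voom values called 14, grouping by shared donor 5, no filter on low counts 19, and a share change of 5 points 6; leaving out 1 library gave 3 to 21. Against 2 alternative first exon events called, these gave 1 (Clcn7), 0, 5 and 3, and leaving out 1 library gave 0 (without Ag+Costim 2) to 6 (without Ag 4). In 2 alternatives chosen after seeing the data, leaving out Ag 2 and Ag 5 called 150 groups (0.571%) and 10 events (0.881%), among them Rtn4 and Foxp1. The other, limma voom with library quality weights, called 459 groups (2.16%) and 46 events (4.62%). With weights, the adjusted p was 0.0011 for Rtn4, 0.00461 for Hivep2 and 0.238 for Rhbdd3. Same-numbered libraries did not vary together (correlations 0.222, -0.0349, -0.299, -0.456 and 0.0497). These few correlations show no pairing by number but cannot exclude it. The fit with a replicate block called 1 group and 0 events. For genes, 0 calls in edgeR (4501 at an unadjusted p below 0.05) became 2912 in DESeq2 (723 higher, 2189 lower) and 16322 without Ag 2 and Ag 5. The 53 events past a PSI difference of 0.1 became 139 at 0.05, 10 at 0.2, 91 in genes at 1 CPM and 101 without a filter on level, and 51 to 54 when 1 library was left out of the CPM means. Of the alternatives for single events, 471 kept their side of the threshold, 15 moved past it and 8 lost it. A further 1, without a test, moved. A change of sign was counted only for exons called with all libraries, where it was found in 0. In exons not called the sign could change, as in Dhcr7 (-15.4 points, and 0.473 without Ag 2) and Ampd2 (1.98 and -2.69). The causes were not tested. Precision is limited by the 5 libraries per group, by transcript estimates at about 10 CPM, and by the pooling of PSI.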

Other observations

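In 21 events of genes at 10 CPM, the pooled PSI lay on different sides of 0.5 in the groups, some by small differences. Of these, 11 had a PSI above 0.5 in Ag and below it in Ag+Costim, and 10 the reverse. Beside those named above, the first kind held Tcf7, the factor of naive and memory T cells (0.535 and 0.499), Rest, a repressor of neuronal genes (0.508 and 0.462), and Limk1, a kinase that regulates cofilin; the second held Ptpn7, a phosphatase of lymphocytes (0.472 and 0.616), and Lpar5, a receptor for lysophosphatidic acid (0.478 and 0.596). Mean shares in Ag and Ag+Costim were 97.55 and 97.03% for Tcf7, 44.8 and 43.6% for Rest, and 48.8 and 52.6% for Limk1. They were 44.7 and 54.7% for Ptpn7 and 33.2 and 38.7% for Lpar5. The shares overlapped between the groups in all of these genes, and that of Limk1 went the other way from its PSI. The genes were named after their values were seen.

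The 3 largest PSI differences of all, those of Pitpnm2, Zfp473 and Inppl1, were in genes under 10 CPM. Pitpnm2 had 0.853 in Ag and 0.109 in Ag+Costim, yet its mean share was 7.44 and 7.92%. Zfp473 had 0.937 and 0.224 with shares of 59.9 and 68.0%, and Inppl1, an inositol phosphatase, 0.853 and 0.299 with shares of 93.3 and 99.7% that did not overlap, so that both shares went the other way. Nxt2, of mRNA export and also under 10 CPM, had 0.114 and 0.552.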
